A study of Mus musculus with 32 samples.

Results

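Class 2B peaks of B6 mice are PRDM9 ChIP-seq peaks away from the centres of DMC1 intervals and with little or no H3K4me3 interval over them. A B6 PRDM9 peak was a member when it met the central 400 bp of no B6 DMC1 interval and when less than 10% of its length lay under H3K4me3 intervals, both those common to the strains and those specific to B6. The rule took 260 of the 2601 peaks of the deposited B6 list, which is 10% of them. The other peaks were 1881 of class 1, with DMC1 or B6-specific H3K4me3, and 460 of class 2A, with common H3K4me3 and no DMC1. DMC1 and H3K4me3 chose the members, so values of these marks are given here as a description and were not tested.

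PRDM9 is a zinc finger protein with a methyltransferase domain. Its fingers read a DNA sequence, its methyltransferase places H3K4me3 on the nucleosomes beside it, and SPO11 then cuts DNA at some of these sites to start meiotic recombination. DMC1 coats the single-stranded DNA made at the breaks, so DMC1 ChIP-seq maps the sites where breaks were formed. CTCF, another zinc finger protein, binds its own sequence at chromatin loop anchors and insulators, and its sites often lie away from promoters.

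PRDM9 was mapped in whole testes at 13 days post-partum, each list from 2 ChIP replicates except where stated. The groups were B6 mice (C57BL/6JOlaHsd) with the allele Prdm9Dom2, B6 Spo11KO mice (Spo11tm1M), which form no SPO11 breaks, B6 Prdm9KO mice (B6;129P2-Prdm9tm1Ymat/J) with 1 ChIP library, and RJ2 mice (B10.MOLSGR(A)-(D17Mit58-D17Jcs11)/Bdm) with the allele Prdm9Cst. DMC1 came from whole testes at 5 weeks, and H3K4me3 from elutriated pachytene cells of adults with 1 ChIP library per strain, so PRDM9 was not measured at the age or in the cells of these marks. The lists give positions on mm9 pooled over replicates, with no score and no read count, so the depth behind a peak is unknown and no spread between mice can be given. Intervals below are 95% Clopper-Pearson intervals of a share of peaks, or Newcombe intervals of a difference of shares, and cover counting error only. A difference was called where its interval left out 0, and 13 differences were computed. Peaks found in both strains had been removed before deposit.

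Sequence was read from the central 200 bp of each peak, which the class rule did not use. A matrix of 20 positions was learned from class 2B peaks of odd-numbered autosomes and scored on the other chromosomes, and a second was learned in the same way from the class 2B peaks without a hit of the first. A hit is a score that 1% of all 12778424 windows of 200 bp in the genome pass. The second matrix was added after the data had been seen. It resembles the sequence known to be bound by CTCF and is called CTCF-like here, by its letters alone, as CTCF was not mapped in these samples. The sequences below are those of the first-listed members with a CTCF-like hit on chromosomes not used for learning. Each is given 5′ to 3′ as the matrix reads it, with the hit in capitals.
chr6:40843695-40843754, minus strand: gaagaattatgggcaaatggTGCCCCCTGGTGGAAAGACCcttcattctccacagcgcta
chr2:148728292-148728351, plus strand: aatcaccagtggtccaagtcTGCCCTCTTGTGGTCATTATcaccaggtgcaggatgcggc
chr16:9009686-9009745, minus strand: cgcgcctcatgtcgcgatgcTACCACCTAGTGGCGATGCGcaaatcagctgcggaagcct
chr10:126356278-126356337, minus strand: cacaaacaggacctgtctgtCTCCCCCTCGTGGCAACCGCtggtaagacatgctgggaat
chr2:118709290-118709349, plus strand: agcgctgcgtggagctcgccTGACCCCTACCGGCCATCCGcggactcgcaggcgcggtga
chr2:30022384-30022443, minus strand: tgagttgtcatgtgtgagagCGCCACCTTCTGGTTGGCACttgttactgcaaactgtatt
chr2:77180225-77180284, plus strand: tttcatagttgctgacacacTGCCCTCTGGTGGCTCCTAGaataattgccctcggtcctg
chr8:28092341-28092400, plus strand: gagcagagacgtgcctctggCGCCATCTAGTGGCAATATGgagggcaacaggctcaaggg

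The first matrix held another sequence. Its hits are shown because the bases beside them are alike too, as they are in copies of an interspersed repeat. No repeat annotation was used, so the family is not named.
chr10:31886841-31886900, plus strand: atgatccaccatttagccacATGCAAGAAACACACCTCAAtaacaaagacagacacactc
chr10:57117313-57117372, minus strand: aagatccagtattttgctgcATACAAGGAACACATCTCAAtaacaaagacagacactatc
chr2:23566343-23566402, minus strand: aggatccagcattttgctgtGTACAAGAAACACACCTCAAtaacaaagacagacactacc
chr8:71860273-71860332, plus strand: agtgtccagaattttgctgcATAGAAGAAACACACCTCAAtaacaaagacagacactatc
chr6:118312005-118312064, plus strand: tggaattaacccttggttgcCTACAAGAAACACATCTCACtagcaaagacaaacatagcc
chr6:106636975-106637034, minus strand: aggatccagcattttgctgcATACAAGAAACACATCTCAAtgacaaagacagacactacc
All of these sites are intergenic in the GENCODE annotation of mm9 except the last, in an intron of Cntn4, a cell adhesion protein of neurons.

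The CTCF-like sequence was the commonest in class 2B. On the held-out chromosomes 60 of 128 class 2B peaks had a hit (46.9%, interval 38.0 to 55.9), against 19 of 965 class 1 peaks (1.97%, interval 1.19 to 3.06). Over all B6 peaks there, 7.47% had one. The difference was 44.9 percentage points (interval 36.4 to 53.5, and 32.6 to 57.5 when widened for the 13 differences). Class 2A peaks had 17 hits among 192 (8.85%), which put class 2B higher by 38.0 points (interval 28.3 to 47.2). RJ2 peaks chosen by the same rule with the RJ2 marks had 38 hits among 1152 (3.3%), and B6 class 2B was higher by 43.6 points (interval 35.1 to 52.2). The RJ2 class is far larger. Over all chromosomes, each held out, 67 of 2449 RJ2 class 2B peaks had a hit, against 131 of 260 in B6. Of all RJ2 class 2B peaks, 200 of 2449 (8.17%) overlapped a Prdm9KO peak, against 1 of 260 in B6 class 2B. Without such RJ2 peaks the difference was 43.5 points. At a score that 0.1% of genome windows pass, 29 of 128 class 2B and 3 of 965 class 1 peaks still had a hit, a difference of 22.3 points.

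**Figure D1:**
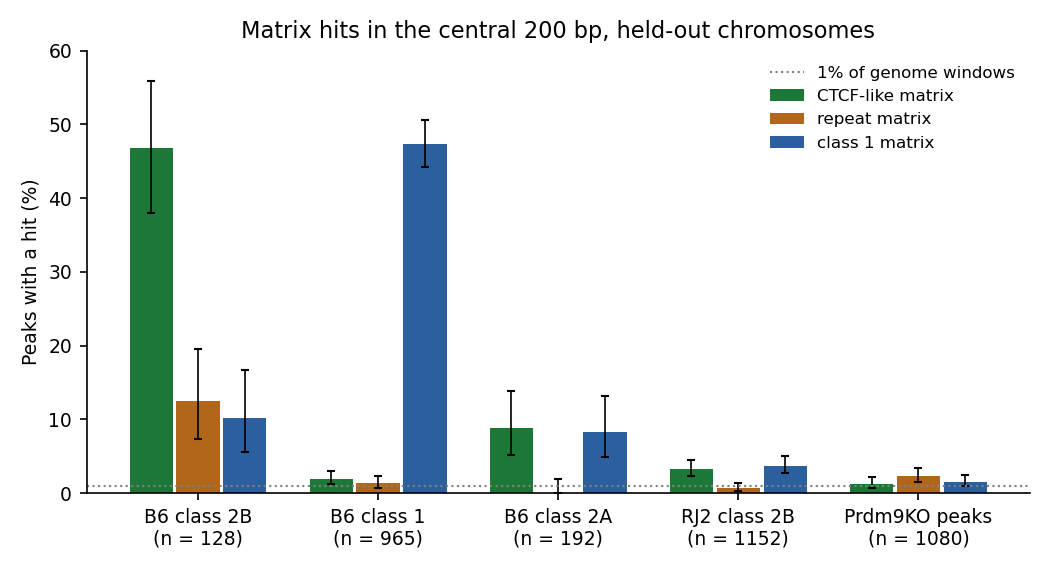
Share of peaks (%, vertical axis) with a hit of the CTCF-like matrix, the repeat matrix and the class 1 matrix in the central 200 bp, for B6 class 2B, B6 class 1, B6 class 2A, RJ2 class 2B and Prdm9KO peaks on chromosomes not used for learning. Bars are shares, lines are 95% Clopper-Pearson intervals, and the dotted line marks the 1% of genome windows. The CTCF-like bar stands at 46.9% in B6 class 2B and the class 1 bar at 47.4% in B6 class 1.

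A short word gave the same order between class 2B and class 1. AGGNGGC, part of the CTCF core and searched on both strands, was in the central 200 bp of 83 of 260 class 2B peaks (31.9%), against 179 of 1881 class 1 peaks (9.52%). Over all B6 peaks 15.1% had it, and over all genome windows of this length 7.24%. The difference was 22.4 points (interval 16.9 to 28.4). In class 2A 131 of 460 peaks (28.5%) held it, and class 2B was not tested against class 2A for this word. The median GC content was 50.5% in class 2B, 45% in class 1 and 61% in class 2A. How base content bears on this GC-rich word was not tested. When AGGGGGC was searched in its place, 23 class 2B peaks (8.85%), 31 class 1 peaks (1.65%), 41 class 2A peaks (8.91%) and 1.55% of genome windows had it, and class 2B was higher than class 1 by 7.20 points (interval 4.24 to 11.3). RJ2 class 2B held AGGNGGC in 15.1% and AGGGGGC in 2.49% of its peaks. Of the 131 CTCF-like hits found when each set of chromosomes was scored by the matrix of the other, 42 contained AGGNGGC and 64 contained CCACNAG, another part of the core. Either word was in 87 (66.4%).

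The repeat matrix marked a smaller group. On the held-out chromosomes 16 of 128 class 2B peaks had a hit (12.5%, interval 7.32 to 19.5), against 13 of 965 class 1 peaks (1.35%). Over all B6 peaks there, 2.26% had one. The difference was 11.2 points (interval 6.40 to 18). None of 192 class 2A peaks had a hit (interval 0 to 1.90), and 8 of 1152 RJ2 class 2B peaks did (0.694%). Class 2B was higher than class 2A by 12.5 points (interval 7.45 to 19.3) and higher than RJ2 class 2B by 11.8 points (interval 7.10 to 18.7). Prdm9KO peaks, which arise without PRDM9, had the sequence in 25 of 1080 cases (2.31%, interval 1.5 to 3.40), and the interval left out the 1% of genome windows. Their CTCF-like share was 14 of 1080 (1.3%). The Prdm9KO list came from 1 single-end library and a relaxed p-value, while the B6 list came from paired-end reads. Shares of the Prdm9KO and B6 lists are therefore not on equal terms.

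Likeness among the repeat sites ran well past the matrix. Over all chromosomes 31 members had a hit, and 26 of them matched the commonest base at 60% or more of the 100 positions around the hit, with a median of 86% over the 31. The share of bases equal to the commonest one was 91.1% in the 20 bp of the hit. It stood at 79.7% and 82.6% in the neighbouring bins of 20 bp and at 55.2% and 56.5% at 100 bp on either side. These members share a sequence and are not independent sites. The authors kept reads that map to 1 place. How that filter bears on copies of a repeat was not tested.

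The class 1 sequence, learned from class 1 peaks in the same way, was less common in class 2B than in class 1. On the held-out chromosomes 13 of 128 class 2B peaks had a hit (10.2%, interval 5.52 to 16.7), against 457 of 965 class 1 peaks (47.4%, interval 44.2 to 50.6). Over all B6 peaks there, 37.8% had one, and the class 2B interval left out the 1% of genome windows. The difference was -37.2 points (interval -42.4 to -30.0), and -16.6 points at the score that 0.1% of genome windows pass. Class 2A had 16 hits among 192 (8.33%), and Prdm9KO peaks had 17 among 1080 (1.57%). The following 3 class 2B sites carry it and are shown because the first and the second were also in the Spo11KO list.
chr6:40843734-40843793, minus strand: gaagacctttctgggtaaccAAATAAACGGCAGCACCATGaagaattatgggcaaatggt
chr10:67883389-67883448, plus strand: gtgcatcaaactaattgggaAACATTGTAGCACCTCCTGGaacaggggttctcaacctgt
chr10:48442101-48442160, minus strand: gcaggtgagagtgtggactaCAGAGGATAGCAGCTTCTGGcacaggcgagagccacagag
The first overlaps the CTCF-like site printed above on the same strand, so a single peak held both sequences.

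Hits of all 3 matrices sat near the peak centres. They were sought within 100 bp of the centre, which bounds the distances of single hits, and the bins of 100 bp were read without that bound. The middle of the CTCF-like hit lay a median of 29 bp from the centre and within 50 bp in 100 of 131 members (76.3%), with 63 on the plus and 68 on the minus strand. The repeat hit lay a median of 28 bp away and the class 1 hit 33.5 bp away. In bins of 100 bp, 28.8% and 25.8% of class 2B peaks had a CTCF-like hit in the bins beside the centre, and the bins beyond 200 bp had 0.385% to 1.92%.

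**Figure D2:**
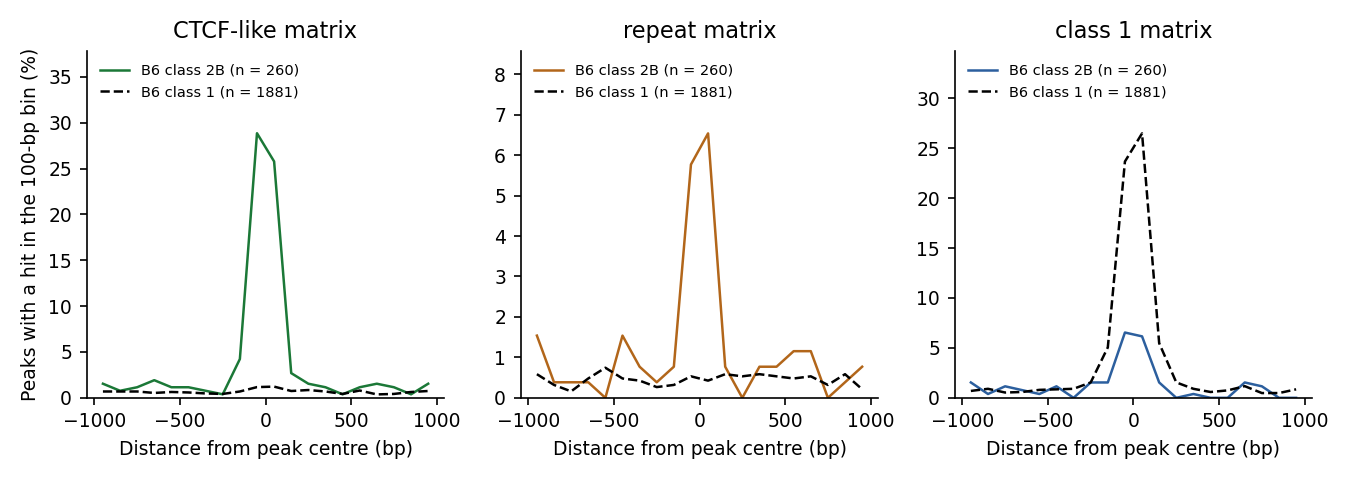
Share of peaks (%, vertical axis) with a hit centred in each bin of 100 bp, by distance from the peak centre (bp, horizontal axis), for the CTCF-like, repeat and class 1 matrices, with B6 class 2B as coloured lines and B6 class 1 as dashed black lines. The vertical scales differ between panels. CTCF-like and repeat hits rise at the centre of class 2B peaks, and class 1 hits at the centre of both classes.

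With every peak scored by the matrix of the other chromosomes, 131 of 260 members (50.4%) had the CTCF-like sequence, 31 (11.9%) the repeat and 30 (11.5%) the class 1 sequence, against 7.84%, 1.88% and 36.6% of all B6 peaks. The CTCF-like and the repeat sequence met in 1 member, and the CTCF-like and the class 1 sequence in 14 others. None of the 3 was found in 84 members (32.3%, interval 26.7 to 38.4). The groups also differed in base content. The median GC content of the central 200 bp was 53% in the 116 members with the CTCF-like sequence alone, 36.5% in the 30 with the repeat alone, 55.5% in the 15 with the class 1 sequence alone and 49.5% in the 84 with none.

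Class 2B peaks stood late in the deposited list and were narrow. Their median place was 2205.5 of 2601, against 1176 for class 1 and 1253.5 for class 2A. Only 23 members were among the first 1300 peaks. Widths ranged from 232 to 993 bp with a median of 358 bp, while class 1 had a median of 504 bp. The median of class 2A was 437.5 bp. The authors chose the PRDM9 peaks by rank of p-value, but whether the deposited list keeps that order is not given in the sources used here. The wider members came earlier. Among the 5 equal groups of 52 members by place, the median width was 502.5 bp in the earliest and 296.5 bp in the latest. The CTCF-like sequence was in 12 of the 52 earliest members (23.1%) and in 27, 35, 30 and 27 of the later groups, while the repeat was in 10, 7, 5, 5 and 4.

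**Figure D3:**
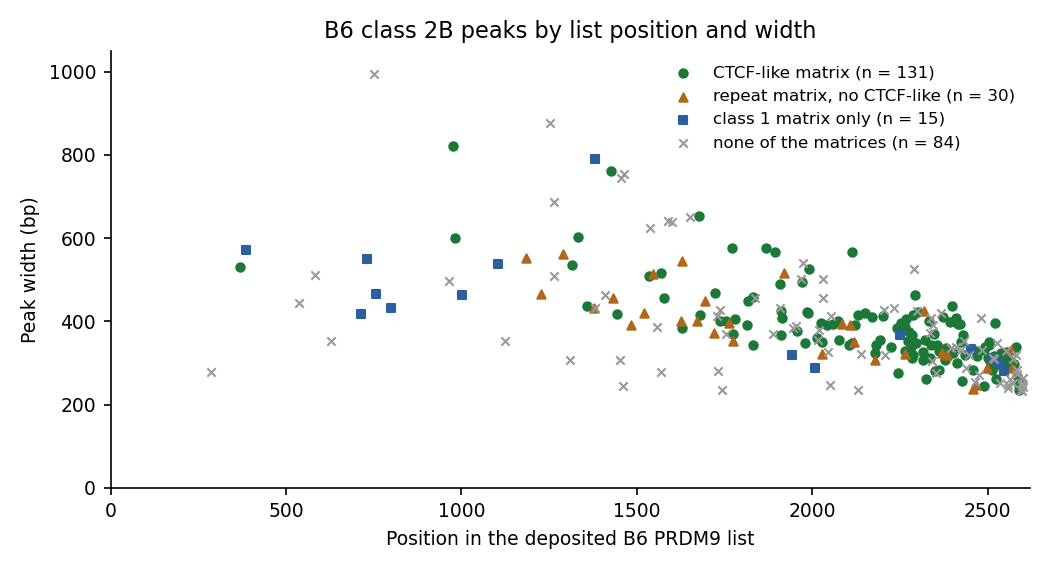
Width (bp, vertical axis) of each of the 260 class 2B peaks by its place in the deposited B6 list (horizontal axis), with symbols for the sequence found by the matrix of the other chromosomes. Members crowd into the later part of the list, and the widest peak, 993 bp, has none of the 3 sequences.

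The Spo11KO list asks whether PRDM9 was found at these sites without SPO11 breaks. It holds 1070 peaks, against 2601 in the B6 list. The authors write that lower sensitivity could be behind the smaller number, which was not tested here. A missing overlap therefore does not show that PRDM9 was absent. The Spo11KO list overlapped 5 of 260 class 2B peaks (1.92%, interval 0.627 to 4.43), against 918 of 1881 class 1 peaks (48.8%, interval 46.5 to 51.1). Over all B6 peaks 35.5% overlapped. The difference was -46.9 points (interval -49.4 to -43.5). Since class 2B stood late in the list, the overlap was also read by place. At places 2081 to 2601 of the B6 list it was 2 of 148 for class 2B (1.35%), against 42 of 275 for class 1 (15.3%), and among all peaks after place 1300 the difference was -22.0 points. None of 460 class 2A peaks overlapped (interval 0 to 0.799). Class 2B was higher than class 2A by 1.92 points (interval 0.547 to 4.42), but the interval widened for 13 differences, -0.315 to 6.27, included 0. The difference rests on 5 peaks. Among the first 1300 peaks it was 13.0 points (3 of 23 against 0 of 237, interval 4.39 to 32.1), and after place 1300 it was 0.844 points (interval -0.957 to 3.02).

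**Figure D4:**
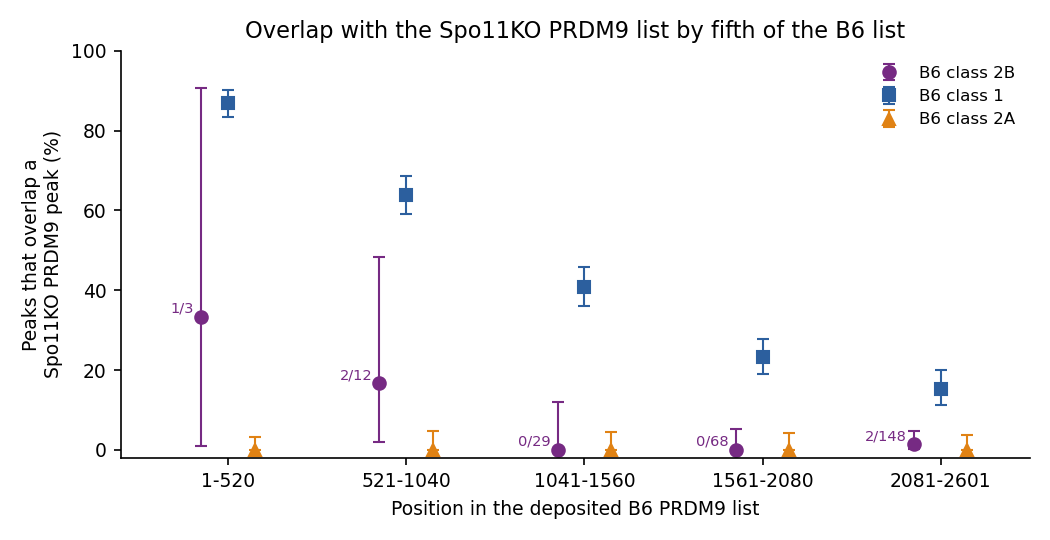
Share of B6 peaks (%, vertical axis) that overlap a Spo11KO PRDM9 peak, in 5 equal stretches of the deposited B6 list (horizontal axis), for class 2B, class 1 and class 2A. Points are shares, lines are 95% Clopper-Pearson intervals, and the class 2B counts are printed. Class 1 shares run between 15.3% and 87.0%, and the early class 2B points rest on 3 and 12 peaks.

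The 5 members in the Spo11KO list were at places 368, 583, 730, 2597 and 2598. The first, chr6:40843438-40843967, lay 2408 bp from the start of Trbv1, a T cell receptor beta variable segment, and held both the CTCF-like and the class 1 sequence. The second, chr1:48871178-48871688, was intergenic with 34% GC and held none of the 3. The third, chr10:67883213-67883762, was intergenic and held the class 1 sequence. The other 2, both on chromosome 8, were narrow, at 245 and 252 bp, and held none. Of the 35 members with the repeat by the matrix of the odd-numbered autosomes, training peaks included, 0 overlapped, against 5 of the 225 without it, a difference of -2.22 points (interval -5.10 to 7.75) that included 0.

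The Spo11KO list also held class 2B peaks. By the same rule and the B6 marks, 77 of its 1070 peaks (7.20%) were class 2B, and 5 of these overlapped a B6 peak while 23 overlapped an RJ2 PRDM9 peak. Over the whole Spo11KO list 923 of 1070 peaks overlapped a B6 peak and 25 an RJ2 peak. Peaks shared by B6 and RJ2 are missing from both deposited lists. A Spo11KO peak at such a place therefore counts here as without a B6 peak. The CTCF-like sequence was in 3 of the 77 (3.90%, interval 0.811 to 11), against 131 of 260 in B6 class 2B. The repeat was in 0 of the 77 (interval 0 to 4.68).

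Members lay mostly outside genes. The peak centre was intergenic in 174 of 260 class 2B peaks (66.9%, interval 60.8 to 72.6), in an intron in 70 (26.9%) and in an exon in 16 (6.15%). Class 1 peaks were intergenic in 46.4% and intronic in 47.3% of cases. Class 2A peaks were intergenic in 57.8%, intronic in 12.2% and exonic in 30% of cases. Over all B6 peaks 39.1% were intronic and 10.5% exonic. A transcription start lay within 1 kb of the centre of 26 class 2B peaks (10%), against 97 class 1 peaks (5.16%), and of 20.4% of all B6 peaks, a share that class 2A raises. The difference between class 2B and class 1 was 4.84 points (interval 1.57 to 9.19). CpG-rich centres, with at least 55% GC and a CpG ratio of at least 0.65, were in 19 class 2B peaks (7.31%), against 5 class 1 peaks (0.266%) and 12.8% of all B6 peaks, which put class 2B higher by 7.04 points (interval 4.44 to 10.9). Of the 26 members near a start, 10 were CpG-rich, 6 had the CTCF-like sequence and 12 lay within 1 kb of an H3K4me3 interval or under one by less than 10%.

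Of the 10 first-listed members, 6 lay within 1 kb of a start. The first, chr8:13159033-13159310, was in an exon of Lamp1, a lysosome membrane protein, with 68.5% GC and H3K4me3 over 7.19% of its length. Others were chr8:47296272-47296716 in an exon of Slc25a4, the mitochondrial ADP/ATP carrier, with an H3K4me3 interval 259 bp away, and chr19:3767857-3768208 at the start of Suv420h1, a histone H4 lysine methyltransferase, with one 247 bp away. The member in an intron of Ostf1, chr19:18705793-18706210, had one 249 bp away. That in an exon of 4930524L23Rik and Ppp1r3f, chrX:7150639-7151104, had one 3 bp away. Of these 6 members, 5 had H3K4me3 within 260 bp or overlapping. Of the 260 members in all, 26 were near a start, and the first-listed members were not tested against the rest. The fullest width, 993 bp, was that of chr4:16090756-16091748, 5 bp from the start of A530072M11Rik, and it was the only member that overlapped a Prdm9KO peak.

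Genes of the 2 lists written for this work were read against members as well. Of 86 annotated genes at loci known for CTCF, the only one in or nearest to a member within 100 kb was Rasgrf1, an imprinted Ras exchange factor, 6898 bp from chr9:89797499-89797930, which had no CTCF-like hit. That is 1 of 260 class 2B peaks (0.385%), against 3 of 1881 class 1 peaks (0.159%) and 0.192% of all B6 peaks. Of 38 genes of meiotic recombination and the chromosome axis, Hells, a chromatin remodeller, held a member in an intron with the repeat sequence, chr19:39036951-39037496. Hsf2bp, a partner of BRCA2 in meiosis, held one with the CTCF-like sequence, chr17:32162411-32162729. These are 2 of 260 class 2B peaks (0.769%, interval 0.0933 to 2.75), against 0 of 1881 class 1 peaks. Over all B6 peaks it was 5 of 2601 (0.192%), and those not in class 2B were class 2A peaks. Such small counts were not tested.

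Distances to the marks that made the rule are a description. The median distance from a member to the nearest DMC1 centre part was 64.7 kb and to the nearest B6 or common H3K4me3 interval 15.0 kb, and 25 members had H3K4me3 within 1 kb. Just inside the limit were chr15:75509736-75510036 and the Lamp1 peak, with H3K4me3 over 7.97% and 7.19% of their lengths, and these 2 were the only members with any. Just outside were 2 class 2A peaks with 13.6% and 15.2% and a class 1 peak with 15.9%. The members nearest to a DMC1 centre part were chr17:86561186-86561583, chr8:108546479-108546804 and chr15:88385882-88386249, at 323, 505 and 769 bp. Outside the centre part, 4 members overlapped a B6 DMC1 interval, which the rule allows. Of the 30 members with the class 1 sequence, 3 lay within 5 kb of a DMC1 centre part, against 21 of all 260.

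The RJ2 marks were not part of the rule. RJ2 DMC1 overlapped 1 class 2B peak (0.385%), against 24 class 1 peaks (1.28%), 1 class 2A peak (0.217%) and 1% of all B6 peaks. RJ2-specific H3K4me3 overlapped 15 class 2B peaks (5.77%, interval 3.26 to 9.34), against 3 class 1 peaks (0.159%), 1 class 2A peak (0.217%) and 0.73% of all B6 peaks. The strain-specific and common H3K4me3 lists are made to be apart, which leaves classes defined by the other lists little room for this overlap, so it was not tested. Among the 15, 6 had the CTCF-like sequence, 4 were CpG-rich, 3 lay within 1 kb of a start and none overlapped RJ2 DMC1.

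Class 2B peaks were found on every autosome and on X. They were 29 of 177 B6 peaks on chromosome 4 (16.4%, interval 11.3 to 22.7), 17 of 98 on chromosome 15 (17.3%) and 11 of 62 on chromosome 19 (17.7%), against 10% over all. The lowest shares were 2 of 52 on X (3.85%), 5 of 109 on chromosome 14 (4.59%) and 13 of 217 on chromosome 1 (5.99%). The interval of chromosome 15, 10.4 to 26.3, also left out 10%, and that of chromosome 19, 9.20 to 29.5, held it. So did those of X, 0.469 to 13.2, chromosome 14, 1.51 to 10.4, and chromosome 1, 3.23 to 10.03. These shares were read over 20 chromosomes and were not tested. No member had another within 10 kb, and 6 had another within 100 kb. The median distance to the next member was 3194 kb and to the nearest class 1 peak 425 kb.

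**Figure D5:**
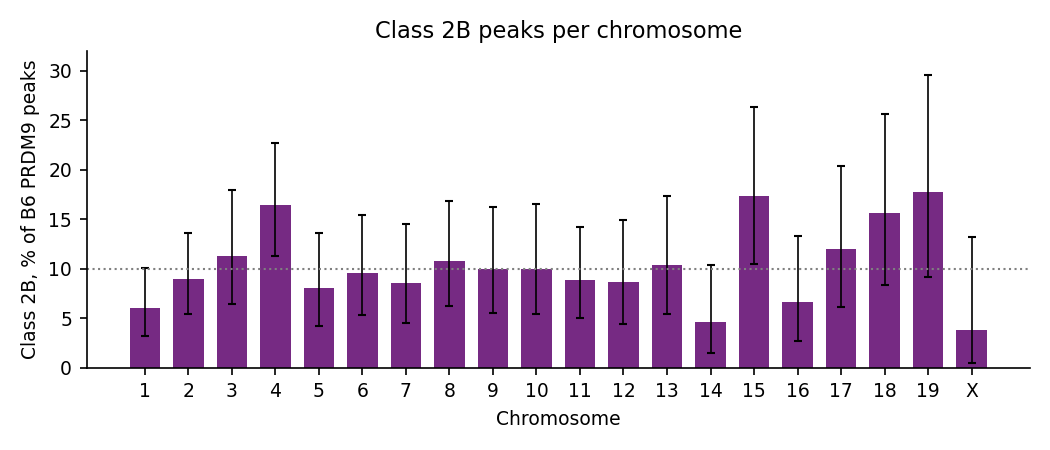
Class 2B peaks as a share of all B6 PRDM9 peaks (%, vertical axis) on each chromosome (horizontal axis). Bars are shares, lines are 95% Clopper-Pearson intervals, and the dotted line is the 10% of all B6 peaks. Chromosomes 19, 15 and 4 stand highest, at 17.7%, 17.3% and 16.4%, and X lowest, at 3.85%.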

How the data were processed

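The authors mapped reads to mm9. They called PRDM9 and DMC1 peaks with MACS2 and, where there were replicates, kept peaks of the pooled reads by the irreproducible discovery rate. H3K4me3 peaks were called with an earlier version of MACS on several sets of reads and intersected. PRDM9 peaks shared by the strains were removed, and the authors describe removing those found in Prdm9KO mice. In the deposited lists 252 of 10121 RJ2 and 2 of 2601 B6 peaks still overlap a Prdm9KO peak. The deposited lists hold interval positions, with no count or score, in 9 lists. Another 9 columns hold 1 constant placeholder each. The 10 H3K36me3 samples were not analysed here. The members and gene lists were chosen with earlier results of these data known. Matrices were learned from the central 200 bp of peaks, against background windows 10 kb to either side, a seed word of 8 bases, 10 rounds and a pseudocount of 1. Shares were compared by Newcombe intervals. Named sites were the 10 first-listed, the 5 widest, those in the Spo11KO list, the 10 first near a start, those at genes of the 2 lists and those nearest the class limits. Sequences were those of the first-listed held-out members with a hit, without chromosome 18, leaving out 1 class 1 site in an exon. Alternatives changed the class rule, windows, scores and peaks kept. Functions were tested on simulated data. Genome windows and genes came from NCBIM37, which is mm9, and GENCODE M1. Python 3.11.15, numpy 2.4.6, scipy 1.17.1, numba 0.67.0 and matplotlib 3.10.9 were used.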

Additional observations from a re-analysis of the deposited data

Results flagged for a closer look

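The contrast between class 2B and class 1 differed between the strains for both sequences. For the CTCF-like matrix it was 44.9 points in B6 and 2.47 points in RJ2, a difference of 42.4 points (interval 33.8 to 51.1) from the combined Newcombe intervals. For the repeat matrix it was 11.2 points in B6 and 0.181 points in RJ2, a difference of 11 points (interval 6.17 to 17.9). Both matrices were learned from B6 peaks, and the lists of the strains differ in depth and in the number of accepted peaks. What sets the strains apart was not tested.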

How the results depend on the processing

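Of 80 alternatives to 14 results, 78 counted as unchanged. They kept the direction and, as in the main result, had 0 inside or outside the interval. For the number of peaks they stayed within 1.5 times the main count. The number of class 2B peaks was at most 284 under other overlap rules and 23 among the first 1300 peaks of the list, where members were rarer, their median place being 2205.5. After place 1300 the Spo11KO overlap of class 2B stood above that of class 2A by 0.844 points with an interval that included 0, against 13.0 points among the first 1300 peaks, and the cause was not tested. The CTCF-like differences were smallest at the stricter score, at 22.3, 20.1 and 22.0 points against class 1, class 2A and RJ2 class 2B. The class 1 sequence gave -16.6 points there. The second matrix and its alternatives were added after seeing the data, as was leaving out peaks over Prdm9KO peaks, which gave 259. Matrices were not learned again under other class rules. The share of repeat-masked centres was not run, as the genome used carries no masking. No paired analysis was possible because the lists pool the replicates and hold positions only, and for the same reason no replicate could be left out.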
